A study of Rattus norvegicus with 6 samples.

Results

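Avp (ENSRNOG00000021229) and Oxt (ENSRNOG00000021225), the genes for the precursors of vasopressin and oxytocin, were described in the paraventricular nucleus of the rat hypothalamus. They were taken from the table by identifier, with no threshold on a measured value, and are 2 of the 32402 genes in the count table. Both were among the 16344 genes that passed the filter on low counts. RNA-seq libraries came from male rats of the Holtzman strain, a laboratory stock, in 2 groups of 3 libraries. The furosemide group received 10 mg/kg of furosemide, a diuretic that blocks salt uptake in the loop of Henle and so drives sodium and water into the urine, and was then kept for 24 h on sodium-poor food with distilled water. The control group is labelled only as control, and its injection, food and drink are not given in the labels used here. The age of the rats and any genetic alteration are not stated either. Each library was made from the tissue of 3 pooled rats, 9 rats per group, so a value is an average over 3 animals. The comparison asked where the transcripts of both hormones stood 24 h after acute sodium loss.

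Vasopressin and oxytocin are made by the large (magnocellular) neurons of the paraventricular and supraoptic nuclei, whose axons end in the posterior pituitary and release the hormones into the blood. Vasopressin, the antidiuretic hormone, makes the kidney retain water and constricts blood vessels. Oxytocin drives milk ejection and uterine contraction, and in rats it also promotes sodium excretion by the kidney. Each hormone is cut from a precursor that also holds a neurophysin, the carrier protein with which it is packed into secretory granules. The vasopressin precursor ends in a further peptide, copeptin. Smaller (parvocellular) neurons of the paraventricular nucleus also make vasopressin, as do neurons of the suprachiasmatic nucleus. In bulk tissue, fewer cells of a type and less RNA per cell cannot be told apart.

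The 2 genes are neighbours on rat chromosome 3 in the RefSeq gene table of GRCr8. They lie on opposite strands with their ends facing each other, and 0 other listed genes lie in the stretch between them. The 250 bases upstream of each RefSeq gene start are shown because the genes share a chromosomal neighbourhood but start from separate upstream stretches. Avp lies on the minus strand (chr3:138248523-138248772) and Oxt on the plus strand (chr3:138235504-138235753), each written 5′ to 3′ along its gene. The sources used here name no build for the count table, so these positions describe the reference alone. Capitals mark matches, on either strand, to GGTCA (a core of nuclear receptor sites), TGACG (a core of cAMP response elements), TGANTCA (the AP-1 site) and CACGTG (an E-box).
Avp: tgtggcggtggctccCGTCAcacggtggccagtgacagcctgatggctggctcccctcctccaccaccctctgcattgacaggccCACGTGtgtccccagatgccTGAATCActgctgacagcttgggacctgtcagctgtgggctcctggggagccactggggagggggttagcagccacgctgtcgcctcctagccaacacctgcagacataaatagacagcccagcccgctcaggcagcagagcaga
Oxt: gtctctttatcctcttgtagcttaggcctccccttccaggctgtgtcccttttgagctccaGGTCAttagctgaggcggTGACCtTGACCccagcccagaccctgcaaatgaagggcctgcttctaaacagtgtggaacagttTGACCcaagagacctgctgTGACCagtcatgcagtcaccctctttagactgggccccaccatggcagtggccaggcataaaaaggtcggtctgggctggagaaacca

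The 2 stretches held different motifs. Oxt had 5 matches to GGTCA, the first on the strand of the gene at 189 to 185 bases before its start and the others on the opposite strand. Of 33469 RefSeq promoters read over the same 250 bases, 35.4% held at least 1 match to GGTCA and 17 (0.0508%) held 5 or more. Avp had 0 matches to GGTCA. Avp had 1 match each to TGACG (on the opposite strand), TGANTCA and CACGTG, which occurred in 18.2%, 6.34% and 5.59% of all promoters. Oxt had 0 matches to these 3 motifs. The general E-box CANNTG, which includes CACGTG, matched 4 times in Avp and 1 time in Oxt. At least 1 match was held by 65.5% of promoters, and 4 or more by 3.20%. The letters ATAAA, the core of many TATA boxes, lay on the gene strand 39 to 35 bases before the Avp start and 31 to 27 bases before the Oxt start. Oxt held another match on the opposite strand, 245 to 241 bases before its start. Counted on either strand and at any position in the 250 bases, ATAAA occurred in 39.3% of promoters. At least 2 matches, as in Oxt, were held by 15.6%. A match describes the letters of the reference and is not a measured binding site. The motifs were chosen after these stretches had been read, so the counts describe them and test nothing.

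**Figure D1:**
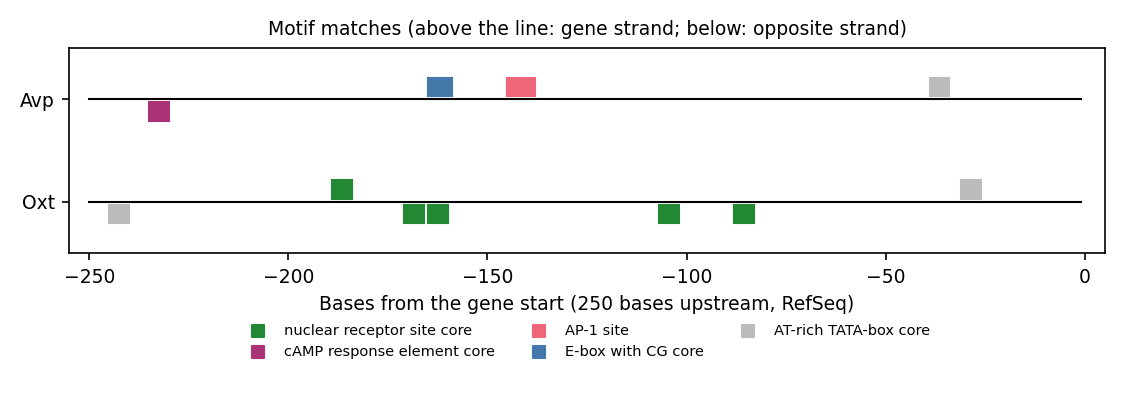
Motif matches in the 250 bases upstream of Avp and Oxt, by distance in bases from the RefSeq gene start; boxes above a line lie on the gene's own strand, boxes below it on the opposite strand, and the general E-box is left out. Oxt carries 5 matches to the nuclear receptor site core and Avp 0, while Avp carries the matches to the cAMP response element core, the AP-1 site and the CG-core E-box.

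Library totals ran from 20911950 to 22495415 counts, and all 3 furosemide totals lay above the control totals. TMM factors, which scale library sizes for composition, lay between 0.994 and 1.01. No pair of libraries was a copy of another: the median squared difference between 2 libraries was 1.69 to 2.35 times the counting noise. None of the 32402 Ensembl identifiers could be paired with a symbol in the reference tables used here. Thus the lists of receptors, processing enzymes, transcription factors, co-made peptides, sodium sensing genes and cell type markers could not be tested. The symbols Avp and Oxt were given with the 2 identifiers and could not be checked against these tables either. No other marker of the labelled tissue could be read, and both hormones are also made in the supraoptic nucleus.

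Both precursors were among the most abundant transcripts of the tissue in every library. Avp took 89904, 82215 and 93942 counts in control pools 1, 2 and 3, and 96299, 81745 and 93771 in furosemide pools 1, 2 and 3. By count it ranked between the 6th and the 9th of all genes in each library. Its share of all counts was lowest in furosemide pool 2, at 0.372% (95% Wilson interval 0.370% to 0.375%), and highest in control pool 3, at 0.449% (0.446% to 0.452%). Pool 2 was thus the lowest of its group for Avp in both groups. Pools of different groups that carry the same number are not paired by the labels.

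Oxt took 105432, 87112 and 86481 counts in control pools 1, 2 and 3, and 96955, 93435 and 113777 in furosemide pools 1, 2 and 3. Its rank by count lay between the 3rd and the 8th. Its share ran from 0.402% (95% Wilson interval 0.399% to 0.405%) in control pool 2 to 0.511% (0.508% to 0.514%) in furosemide pool 3. A single pool stood highest in each group, control pool 1 and furosemide pool 3. Over the 6 libraries summed, Oxt ranked 6th and Avp 8th. Ranks by count are not corrected for transcript length, so they do not order the genes by number of molecules. The intervals cover counting error only.

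The hormones together took 0.781% to 0.933% of all counts in a library. The joint share averaged 0.852% ± 0.0655 over the control pools and 0.863% ± 0.0675 over the furosemide pools (SD over 3 libraries). The difference of 0.0116 percentage points was smaller than either SD, and a two-sided exact permutation test gave p = 0.8, where 0.1 is the smallest value that 3 libraries against 3 allow. The difference turned negative without control pool 2 (-0.0235 percentage points) or furosemide pool 3 (-0.0231), and it was 0.0443 without furosemide pool 2 and 0.0413 without control pool 1. In comparison, the 10 most abundant genes, which include both hormones, took 6.09% of all counts and the 100 most abundant took 19.1%.

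Avp overlapped between the groups after 24 h of sodium depletion and did not pass the test for a difference. On the CPM scale (counts relative to the TMM-scaled total of the library), Avp stood at 4167, 3805 and 4522 in control pools 1, 2 and 3, and at 4287, 3735 and 4197 in the furosemide pools. The furosemide values lay almost wholly within the range of the control values, with only pool 2 below it. The control mean was 4165 ± 359 CPM and the furosemide mean 4073 ± 296 CPM (SD over 3 libraries). The furosemide level was 0.978-fold that of control with a 95% interval of 0.894 to 1.07, a log2 fold change of -0.032 (standard error 0.060, edgeR quasi-likelihood test, adjusted p = 0.929). Of the 3 furosemide pools, 2 lay above the control mean. The log2 estimate turned direction when 1 pool was left out, to 0.031 without control pool 3 and to 0.026 without furosemide pool 2, and it was -0.094 without control pool 2.

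Oxt also overlapped between the groups and did not pass the test. It stood at 4887, 4032 and 4163 CPM in control pools 1, 2 and 3, and at 4317, 4269 and 5092 CPM in the furosemide pools. Control pool 1 lay above furosemide pools 1 and 2, and furosemide pool 3 was the highest of all 6. The control mean was 4361 ± 460 CPM and the furosemide mean 4559 ± 462 CPM (SD over 3 libraries). The furosemide level was 1.05-fold that of control with a 95% interval of 0.939 to 1.16, a log2 fold change of 0.064 (standard error 0.072, edgeR quasi-likelihood test, adjusted p = 0.872). Of the 3 furosemide pools, 1 lay above the control mean. The Oxt estimate turned direction without furosemide pool 3, at -0.023 on the log2 scale. It kept its direction without control pool 1 but rose to 0.16 (95% interval 0.023 to 0.29, edgeR adjusted p = 0.513), and without control pool 2 it was 0.010.

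**Figure D2:**
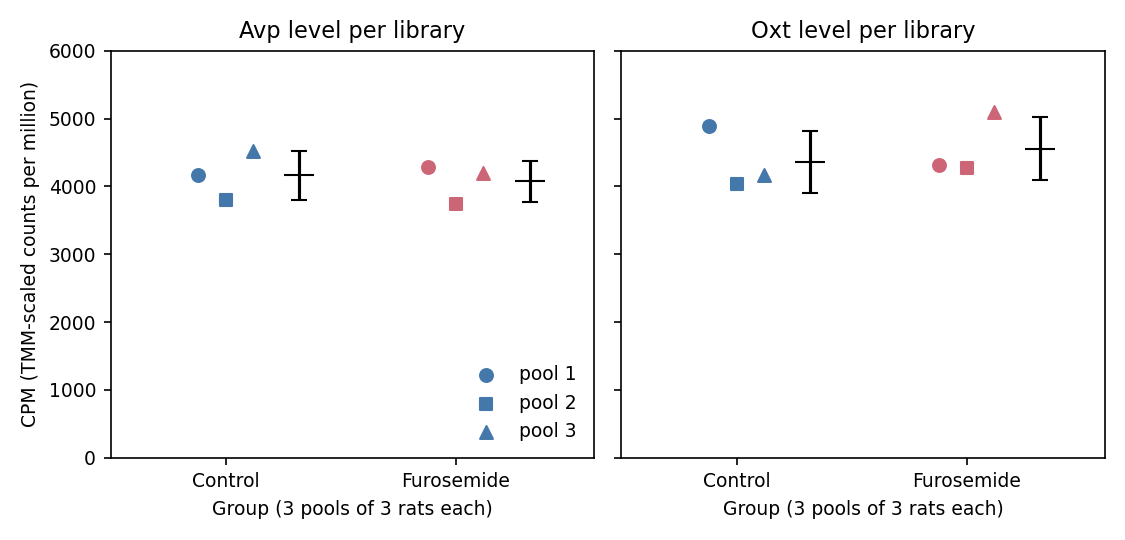
Avp and Oxt in CPM (vertical axis, from 0) in each control and furosemide library; symbols are pools of 3 rats, and the bars beside them give the mean ± SD of 3 libraries. Both genes lie between 3735 and 5092 CPM in every library, and the groups overlap for each.

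Neither hormone passed the adjusted threshold, nor did any other gene: the edgeR quasi-likelihood test called 0 of 16344 genes (0%) at an adjusted p below 0.05. Without adjustment, 1322 genes (8.09%) had a p below 0.05, and neither Avp nor Oxt was among them. DESeq2 called 40 genes, 0.174% of the 22994 with any count, a total that includes any gene it gave no adjusted p. The edgeR exact test called 45 of 16344 (0.275%), and neither tool called Avp or Oxt. For 13.5% of the genes tested all values of one group lay above all values of the other, which held for neither hormone. The size of the Avp estimate, 0.032 without its sign, exceeded that of 29.6% of all tested genes, and the Oxt estimate exceeded 52.7%. The median size over all tested genes was 0.060 on the log2 scale. Among the 200 genes closest in abundance the median size was 0.031. The Avp estimate exceeded in size that of 51.5% of these genes, and the Oxt estimate that of 85.5%.

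**Figure D3:**
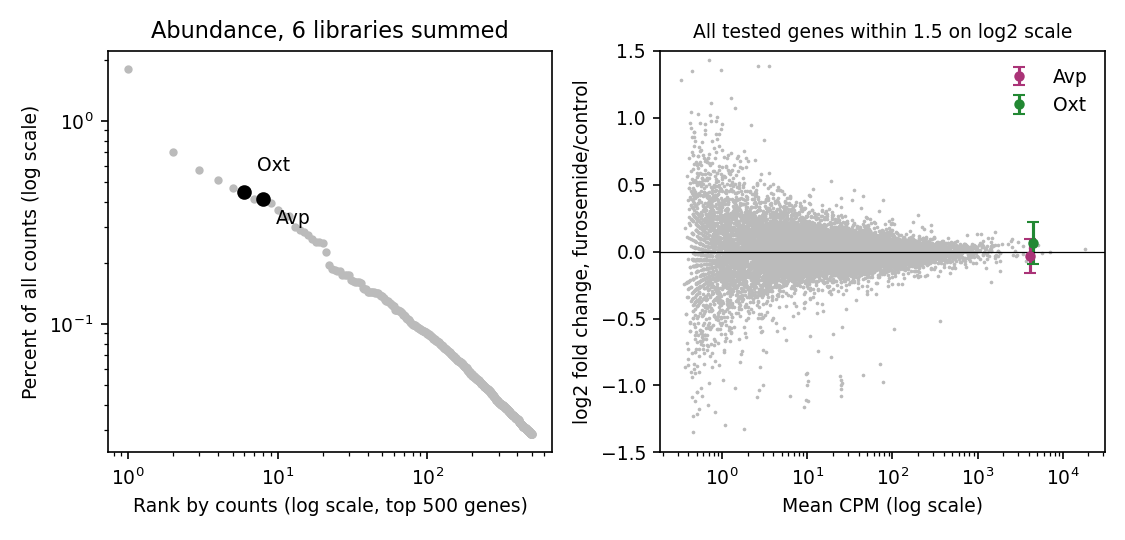
Left, the percent of all counts over 6 libraries summed against rank, both axes on log scales, for the 500 most abundant genes; right, the log2 fold change of furosemide over control against mean CPM (log axis) for tested genes, with 95% intervals for Avp and Oxt (2 genes beyond 1.5 in size are not drawn). Oxt ranks 6th and Avp 8th by count, and both intervals span 0.

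The hormone transcripts varied more between replicate pools than most of the 200 genes closest to them in abundance. The coefficient of variation of Avp was 8.61% among control pools and 7.27% among furosemide pools, and that of Oxt was 10.6% and 10.1%. The 200 genes closest in mean CPM, from 557 to 18030 CPM, had a median of 2.59% in controls and 2.19% after furosemide. As Oxt ranked 6th and Avp 8th by count, most of these genes were less abundant than either hormone. Avp exceeded 92.5% of them in controls and 96.5% after furosemide, and Oxt exceeded 95.5% and 99.5%. Counting error alone would give a coefficient of at most 0.350% for Avp and 0.340% for Oxt. The source of the spread between pools was not tested.

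This spread bears on the precision of the comparison. The quasi-likelihood test draws each gene's variance towards that of genes with like abundance, which narrows the interval for a gene that varies more than they do. From the pools' own spread alone, the standard error of the log2 fold change was 0.095 for Avp and 0.12 for Oxt, larger than the fitted values of 0.060 and 0.072. In the robust form of the fit, which shrinks such genes less, the 95% interval ran from 0.849-fold to 1.13-fold for Avp and from 0.846-fold to 1.29-fold for Oxt (edgeR adjusted p = 0.962 and 0.938). Neither form of the interval reached a 1.5-fold change in either direction. These intervals refer to the average over the pooled tissue.

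**Figure D4:**
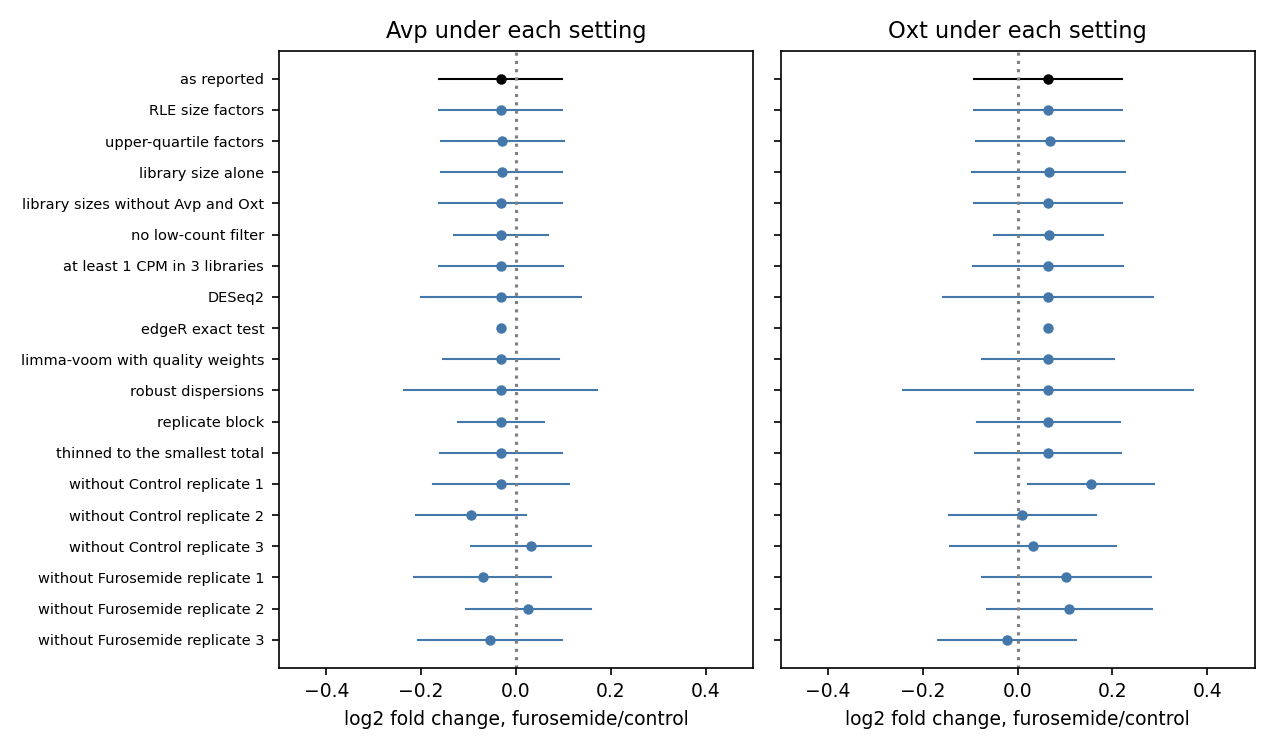
The log2 fold change of furosemide over control for Avp and Oxt as reported and under 18 alternative settings; points are estimates and lines 95% intervals, and the edgeR exact test has no interval. The intervals span 0 in each setting with an interval except for Oxt without control pool 1, where the estimate was 0.16.

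The balance of the hormones was compared within libraries, where library size cancels. The ratio of Avp counts to Oxt counts was 0.853, 0.944 and 1.09 in control pools 1, 2 and 3, and 0.993, 0.875 and 0.824 in furosemide pools 1, 2 and 3. Control pool 3 was the single library with more Avp than Oxt counts. The ratio averaged 0.961 ± 0.118 over the control pools and 0.897 ± 0.0868 over the furosemide pools (SD over 3 libraries). The difference in the mean log2 ratio was -0.096, with p = 0.6 in a two-sided exact permutation test. It stayed negative when any 1 library was left out, but ran from -0.18 without control pool 1 and -0.17 without furosemide pool 1 to -0.037 without furosemide pool 3 and -0.0039 without control pool 3. The ratio is one of counts, not of molecules, since transcript lengths were not used here. The genes also share a nearly identical central exon that encodes part of neurophysin. The sources used here do not say how reads that match both genes were counted, and the part of such reads in these values was not tested.

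No relation between Avp and Oxt across the pools could be shown with 6 libraries. Over the 6 libraries, Pearson's r of log2 CPM was 0.24 (two-sided exact permutation p = 0.667) and Spearman's rho was 0.14 (exact permutation p = 0.803), a single relation with no adjustment. Control pool 2 and furosemide pool 2 were the libraries farthest from the median of Avp. Without them r was -0.86 over the 4 left, so the sign of r rested on those 2 libraries. This r was not tested, and 4 libraries chosen by their Avp values are too few to show an inverse relation. As deviations from the group means r was 0.29. Control pool 2 was low for both genes, while control pool 3 was the highest of all libraries for Avp and the second lowest for Oxt.

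**Figure D5:**
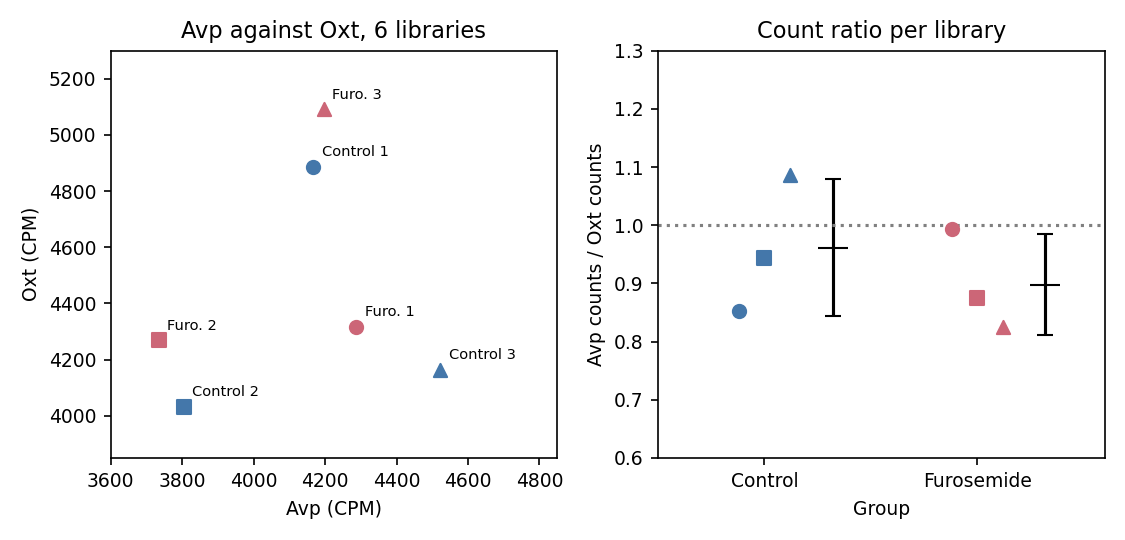
Left, Oxt against Avp in CPM for the 6 libraries, on axes that do not start at 0; right, the ratio of Avp counts to Oxt counts per library, with the mean ± SD of 3 libraries and a dotted line at 1. Only control pool 3 lies above a ratio of 1, and the groups overlap.

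Many genes had a pattern over the libraries more like that of either hormone than the hormones had to each other. Among 10655 other genes that averaged 10 CPM or more, Oxt stood 3362nd in its correlation with Avp, and 48 genes reached an r of at least 0.9. Avp stood 3630th in its correlation with Oxt, and 114 genes reached that r. The gene most like Avp was ENSRNOG00000017150 (r = 0.997 over 6 libraries), at 18.7, 17.6 and 19.6 CPM in the control pools and 19.0, 17.3 and 18.8 CPM in the furosemide pools. The gene most like Oxt was ENSRNOG00000003234 (r = 0.999), at 221, 205 and 208 CPM in the control pools and 211, 210 and 224 CPM in the furosemide pools. With 6 points and so many genes, high correlations also arise between unrelated genes. No number expected for unrelated genes was computed, so these ranks, counts and correlations describe these libraries alone.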

How the data were processed

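The authors deposited raw counts of reads per Ensembl gene for 6 libraries made with a TruSeq mRNA kit, per the labels' protocols. Per the submitters' processing notes the tools were FastQC, TopHat, HTSeq and edgeR; the sources used here give no versions, build, annotation or strand handling. Column names carry the group and replicate, which assigned each to its library. Avp and Oxt were taken by identifier, and symbols were otherwise not available for naming genes.

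In R 4.3.3, all genes were filtered by filterByExpr, scaled by TMM and compared by the quasi-likelihood F test of edgeR 4.0.16 with group as the only term. Benjamini-Hochberg adjustment covered all 16344 genes tested, with a threshold of 0.05. CPM, shares and ratios were computed from the deposited counts. Alternatives included DESeq2 1.42.0, limma 3.58.1 (voom), other scalings and filters, a replicate block and leaving out each library. The 200 genes closest in mean CPM served as comparison for spread. Named genes were both hormones and, for lack of symbols, the single gene most correlated with each. Promoter sequences are from RefSeq (GRCr8). Members, lists and tests were chosen with earlier results of these data known. Separate pools of rats are the replicates, and batches are not given in the labels.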

Additional observations from a re-analysis of the deposited data

How the results depend on the processing

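Neither Avp nor Oxt passed the adjusted threshold in any of 18 alternatives; the lowest adjusted p was 0.800 for Avp and 0.513 for Oxt, the latter in edgeR without control pool 1. Scaling, filters, tools and thinning kept both directions. Leaving out 1 library moved the Avp log2 fold change from -0.094 to 0.031, and it turned upward without control pool 3 (0.031) or furosemide pool 2 (0.026). For Oxt the range was -0.023 to 0.16, and it turned downward without furosemide pool 3 (-0.023). The log2 ratio of Avp to Oxt stayed between -0.18 and -0.0039. The joint share difference ran from -0.0235 to 0.0443 percentage points, and was negative without control pool 2 (-0.0235) or furosemide pool 3 (-0.0231). Over all genes, the count past the threshold was 28 without a low-count filter, 40 in DESeq2, 45 in the edgeR exact test and 4 with robust dispersions, and the cause was not tested. Leaving out 1 library gave 0 to 17. With a replicate block the log2 fold change was -0.031 for Avp and 0.065 for Oxt, and 1 gene passed the threshold. The labels name no pairs, so the main comparison did not take equal numbers as pairs. Deviations from the group means of libraries with the same number were not positively correlated across genes (r of -0.050, -0.032 and -0.12 on log2 CPM).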
